A study of Mus musculus with 6 samples.

Results

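The array used for these mice carries a set of 15 custom probes to protein-coding transcripts that are each printed at 20 scattered spots, and 10 of them read genes in wide use as references for RNA measurements: Actb, Tuba1b, Gapdh, Hprt, Gusb, Ppia, Hsp90ab1, Rpl13a, Tbp and B2m. These 10 members are picked out by probe name as genes known for this use, leaving 5 others of the set aside, out of 60915 probes that remained after the control probes were left out. Hippocampal RNA, freed of ribosomal RNA and labelled with Cy3 by random priming, was hybridised to 1 array per mouse. The groups were 3 Nrf2 (+/+) mice and 3 Nrf2 (-/-) mice, of ICR background and 3 to 4 months old, with no treatment. The study calls the Nrf2 (+/+) mice male and does not repeat the sex for the Nrf2 (-/-) mice. The Nrf2 (-/-) mice lack Nrf2 (gene symbol Nfe2l2) in the whole animal, and the sources used here do not say whether the Nrf2 (+/+) mice were littermates. With whole tissue, a change in RNA per cell and a change in the share of a cell type cannot be told apart.

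A reference gene is a transcript whose amount is taken to be the same in all samples, so that other transcripts can be divided by it. The usual choices serve the upkeep of every cell, such as the cytoskeleton, glycolysis, protein folding and translation, and each can vary with tissue or treatment. In this study β-actin was the reference for the PCR measurements. Nrf2 is a transcription factor that binds the antioxidant response element and drives genes of redox and detoxification metabolism.

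The signal of a probe depends on how well it binds its target, so the signal order below describes the probes and is not an order of transcript abundance. Probe sequences were not analysed here, so binding of near-identical copies, such as other actin and tubulin genes or the processed pseudogenes of Gapdh and Ppia, was not tested. The table of signals as scanned gave a median per array of 86.0 to 107 units in Nrf2 (+/+) and 136 to 181 units in Nrf2 (-/-). The knockout arrays were thus brighter by their medians, though not for every probe. The median log2 difference of the 43528 tested probes was 0.62 as scanned and -0.01 after quantile normalization. Tests took in every probe with the scanner software's mark for a signal clearly over background on 3 or more of the 6 arrays, a mark that 39887 to 46123 probes carried per array. The probe assigned to Nfe2l2 read 12.40, 11.93 and 12.28 log2 units in Nrf2 (+/+) and 7.95, 7.82 and 8.02 in Nrf2 (-/-). The difference was -4.27 (SE 0.20, limma adjusted p = 0.000672). This probe was named by the fold change and p that the study lists for Nfe2l2 under these labels. Its difference thus cannot serve as a check of the labels.

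Of the 10 reference probes, Actb stood higher on every Nrf2 (-/-) array than on any Nrf2 (+/+) array, by 1.71-fold, and the other 9 had fitted differences within 1.13-fold. Over all tested probes, 10.4% had groups that did not overlap, 4.23% with Nrf2 (-/-) higher. None of the 10 passed the test across all probes (limma, Benjamini-Hochberg adjusted p under 0.05), where the background was 0.0482% of tested probes, 6 higher and 15 lower in Nrf2 (-/-). At an unadjusted p under 0.05, Actb alone was past the threshold, against a background of 5.05% in either direction and 1.76% higher in Nrf2 (-/-). The median absolute log2 difference was 0.061 over the members and 0.21 over all tested probes.

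**Figure D1:**
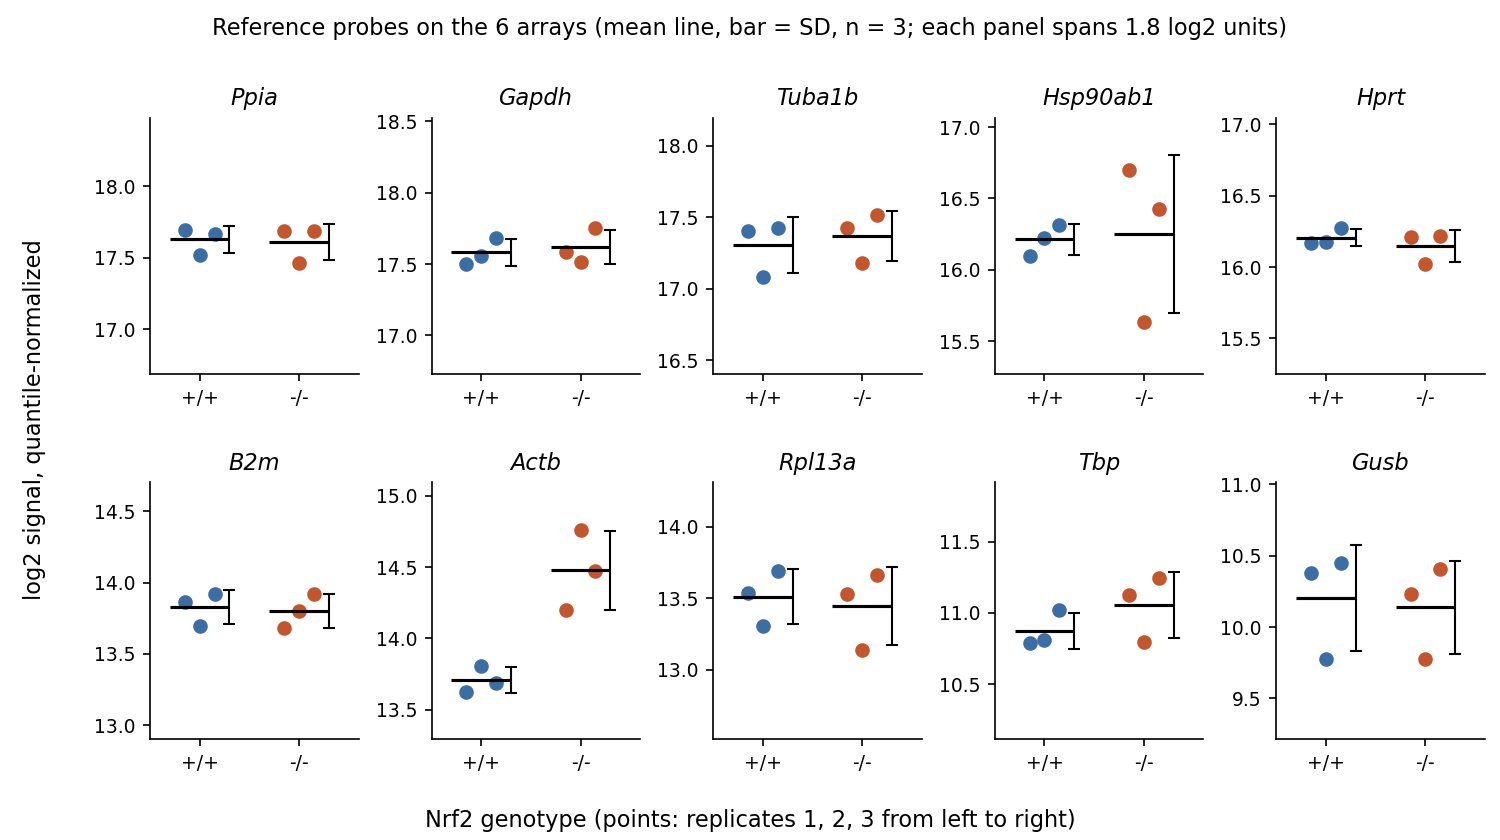
Quantile-normalized log2 signal (y axis) of the 10 reference probes on the 6 arrays, by Nrf2 genotype (x axis). Points are mice, lines are group means and bars are SD (n = 3); every panel spans the same log2 range. The 3 Nrf2 (-/-) points of Actb lie above its 3 Nrf2 (+/+) points, and the groups overlap in the other 9 panels.

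Among the cytoskeletal genes, Actb (probe CUST_9_PI419532418, transcript NM_007393.3, chromosome 5) encodes β-actin, a subunit of actin filaments. Its probe gave 12515, 10958 and 10538 signal units as scanned on the 3 Nrf2 (+/+) arrays and 22246, 35134 and 24325 on the 3 Nrf2 (-/-) arrays. After quantile normalization the values were 13.63, 13.81 and 13.69 log2 units in Nrf2 (+/+) and 14.20, 14.76 and 14.47 in Nrf2 (-/-). The groups did not overlap on either scale, and replicate 2 of Nrf2 (-/-) was the highest on both. The group means were 13.71 ± 0.09 and 14.48 ± 0.28 (SD, n = 3), a log2 difference of 0.77 (SE 0.21, 95% interval 0.28 to 1.26). This is 1.71-fold with an interval of 1.21 to 2.40. The test across all probes gave an unadjusted limma p = 0.00708 and an adjusted p = 0.549, and an exact 2-sided permutation test of Actb alone gave p = 0.1, the smallest that 3 against 3 allows. The absolute difference lay at percentile 96.2 of all tested probes, and 10.4% of tested probes had groups that did not overlap, 4.23% with Nrf2 (-/-) higher.

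The Actb difference was of the same sign at each of its 20 spot positions, from 1.16 to 1.44 log2 units as scanned. Spots of an array share their RNA, so this speaks only of the precision of the array readings. It was also positive between arrays scanned together, at 0.57 for replicates 1 and 0.78 for replicates 3 on the quantile-normalized scale. By scan session, a split read from the scanner settings, it was 0.85 in the first (1 Nrf2 (+/+) and 2 Nrf2 (-/-) arrays) and 0.72 in the second (2 and 1). Without Nrf2 (-/-) replicate 2 it was 0.63.

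Tuba1b (probe CUST_1_PI419532418, transcript NM_011654.2, chromosome 15), an α-tubulin of microtubules, read 17.41, 17.08 and 17.43 log2 units in Nrf2 (+/+) and 17.42, 17.18 and 17.52 in Nrf2 (-/-). The lowest array of each genotype was replicate 2, and the groups overlapped. The difference was 0.07 (SE 0.20, 95% interval -0.41 to 0.54, limma adjusted p = 0.962).

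Of the metabolic genes, Gapdh (probe CUST_14_PI419532418, transcript NM_008084.2, chromosome 6) encodes a glycolytic enzyme and gave one of the brightest readings among the members. Its values were 17.50, 17.55 and 17.69 in Nrf2 (+/+) and 17.59, 17.52 and 17.75 in Nrf2 (-/-), overlapping, with a difference of 0.04 (SE 0.18, 95% interval -0.39 to 0.46, limma adjusted p = 0.98). Agilent's own control probes on the same arrays read Gapdh again at 10 spots each. In the deposited table the probe named Mouse-GAPDH_3 was at 17.03 ± 0.12 in Nrf2 (+/+) and 17.10 ± 0.11 in Nrf2 (-/-), and Mouse-GAPDH_5 at 16.52 ± 0.13 and 16.67 ± 0.47 (SD, n = 3). All 3 Gapdh probes thus overlapped between genotypes, and the wider spread of the second came with its log2 ratio to the first. As scanned, that ratio ran from -0.57 to -0.50 in Nrf2 (+/+) and was -0.04, -0.84 and -0.33 in Nrf2 (-/-) replicates 1, 2 and 3. The order of the Nrf2 (-/-) arrays in that ratio, lowest in replicate 2 and highest in replicate 1, is on the same scale also the order of Hsp90ab1, Gusb, Rpl13a and Tbp, and the reverse of that of Actb and B2m. The control probes of Pgk1, another glycolytic enzyme, gave a log2 ratio of Mouse-PGK1_5 to Mouse-PGK1_3 of -7.80, -8.01 and -7.78 in Nrf2 (+/+) and -7.68, -8.19 and -7.74 in Nrf2 (-/-). It too was lowest in replicate 2 of Nrf2 (-/-) and highest in replicate 1, and in Nrf2 (+/+) replicate 2 was the lowest as well. Whether RNA quality or labelling took part in these values was not tested.

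Hprt (probe CUST_4_PI419532418, transcript NM_013556.2, chromosome X), an enzyme of purine salvage, had the smallest spread within genotypes after quantile normalization. It read 16.17, 16.17 and 16.28 in Nrf2 (+/+) and 16.21, 16.02 and 16.22 in Nrf2 (-/-). Its difference was -0.06 (SE 0.18, 95% interval -0.47 to 0.36, limma adjusted p = 0.964). Gusb (probe CUST_3_PI419532418, transcript NM_010368.1, chromosome 5), the lysosomal β-glucuronidase, had the dimmest probe and varied more within a genotype. Gusb values were 10.38, 9.78 and 10.45 in Nrf2 (+/+) and 10.23, 9.78 and 10.41 in Nrf2 (-/-), with replicate 2 lowest in each group. The difference was -0.06 (SE 0.27, 95% interval -0.69 to 0.56, limma adjusted p = 0.975).

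Of the folding genes, Ppia (probe CUST_10_PI419532418, transcript NM_008907.1, chromosome 11) encodes cyclophilin A, a peptidyl-prolyl isomerase, and had, with Gapdh, the brightest probes as scanned, with Gapdh the brighter on 2 of the 3 Nrf2 (+/+) arrays. It read 17.70, 17.52 and 17.66 in Nrf2 (+/+) and 17.69, 17.47 and 17.69 in Nrf2 (-/-), a difference of -0.02 (SE 0.18, 95% interval -0.44 to 0.41, limma adjusted p = 0.992). The groups overlapped almost fully. Hsp90ab1 (probe CUST_6_PI419532418, transcript NM_008302.3, chromosome 17), the constitutive cytosolic HSP90 chaperone, read 16.10, 16.23 and 16.32 in Nrf2 (+/+) but 16.70, 15.63 and 16.42 in Nrf2 (-/-). Its Nrf2 (-/-) arrays lay on both sides of the Nrf2 (+/+) arrays, so that a difference of 0.04 came with the widest interval of the 10, -0.64 to 0.72 (SE 0.29, limma adjusted p = 0.987).

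Of the genes of the expression machinery, Rpl13a (probe CUST_2_PI419532418, transcript NM_009438.4, chromosome 7) encodes a protein of the large ribosomal subunit. It read 13.54, 13.31 and 13.69 in Nrf2 (+/+) and 13.53, 13.14 and 13.66 in Nrf2 (-/-), with replicate 2 lowest in both, and differed by -0.07 (SE 0.22, 95% interval -0.58 to 0.45, limma adjusted p = 0.965). Tbp (probe CUST_7_PI419532418, transcript NM_013684.3, chromosome 17) encodes the TATA-binding protein of the transcription start machinery. Its values were 10.79, 10.81 and 11.02 in Nrf2 (+/+) and 11.13, 10.79 and 11.24 in Nrf2 (-/-). Of the 3 Nrf2 (-/-) arrays 2 exceeded every Nrf2 (+/+) array, and the difference of 0.18 (SE 0.20, 95% interval -0.29 to 0.66, limma adjusted p = 0.909) was the second in size after Actb. B2m (probe CUST_13_PI419532418, transcript NM_009735.3, chromosome 2), the light chain of MHC class I, read 13.86, 13.70 and 13.92 in Nrf2 (+/+) and 13.68, 13.80 and 13.92 in Nrf2 (-/-), a difference of -0.03 (SE 0.18, 95% interval -0.46 to 0.40, limma adjusted p = 0.986).

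The promoters of 8 members were looked up among RefSeq promoters of 300 bases (build GRCm38.p6, 250 before to 50 after the start), since Nrf2 acts through the antioxidant response element. The core TGACNNNGC was searched on both strands, where N is any base. It was found in Ppia and Rpl13a, once each and on the opposite strand, while 12.4% of all 32851 promoters held it. Actb and Hsp90ab1 were not searched. The 2 promoters below are shown because they are the ones with a match, with it in capitals as read on the gene's own strand.

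Ppia promoter, chr11:6415617-6415916, plus strand: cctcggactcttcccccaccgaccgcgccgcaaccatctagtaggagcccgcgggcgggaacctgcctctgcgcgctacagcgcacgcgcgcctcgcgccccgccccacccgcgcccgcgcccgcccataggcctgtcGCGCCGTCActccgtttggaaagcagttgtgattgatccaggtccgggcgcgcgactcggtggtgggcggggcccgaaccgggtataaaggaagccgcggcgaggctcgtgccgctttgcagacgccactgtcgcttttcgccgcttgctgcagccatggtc

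Rpl13a promoter, chr7:45128696-45128995, minus strand: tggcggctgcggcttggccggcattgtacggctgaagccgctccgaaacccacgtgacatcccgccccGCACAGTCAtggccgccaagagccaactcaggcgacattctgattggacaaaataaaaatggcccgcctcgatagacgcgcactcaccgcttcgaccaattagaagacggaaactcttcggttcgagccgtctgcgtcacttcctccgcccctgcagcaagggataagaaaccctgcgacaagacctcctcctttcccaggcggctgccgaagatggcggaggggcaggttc

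A match is only a stretch of letters. Ppia and Rpl13a differed between genotypes by -0.02 and -0.07 log2 units, as given above, and neither passed the test.

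After quantile normalization the 95% interval lay within a 1.5-fold change in both directions for 6 of the 10 members, and within a 2-fold change for all but Actb. With the 75th percentile shift and as scanned it lay within 1.5-fold for 0 members, and within 2-fold for 9 and 5. With an array left out, the count within 1.5-fold was 0 (without Nrf2 (+/+) replicate 3) to 5. The 5 remaining probes of the 20-spot set differed by -0.23 (Tfrc) to 0.19 (Ldhal6b), the latter close to background at 5.41 log2 units in Nrf2 (+/+), with limma adjusted p from 0.908 to 0.973.

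Between arrays scanned together the other 9 members kept to narrower differences than Actb, with 1 exception. For replicates 1 they ran from -0.18 (B2m) to 0.34 (Tbp), apart from Hsp90ab1 at 0.60, and for replicates 3 from -0.06 (Hprt) to 0.22 (Tbp). Tbp, Gapdh and Hsp90ab1 were positive in both scans and in both sessions, with Tbp at 0.17 in the first session and 0.33 in the second. Gusb turned between sessions, from -0.38 in the first to 0.29 in the second, as did Rpl13a (-0.20 and 0.16), Tuba1b (-0.11 and 0.26), Ppia (-0.12 and 0.09) and B2m (-0.12 and 0.11). These values rest on 1 or 2 arrays a side and were not tested.

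**Figure D2:**
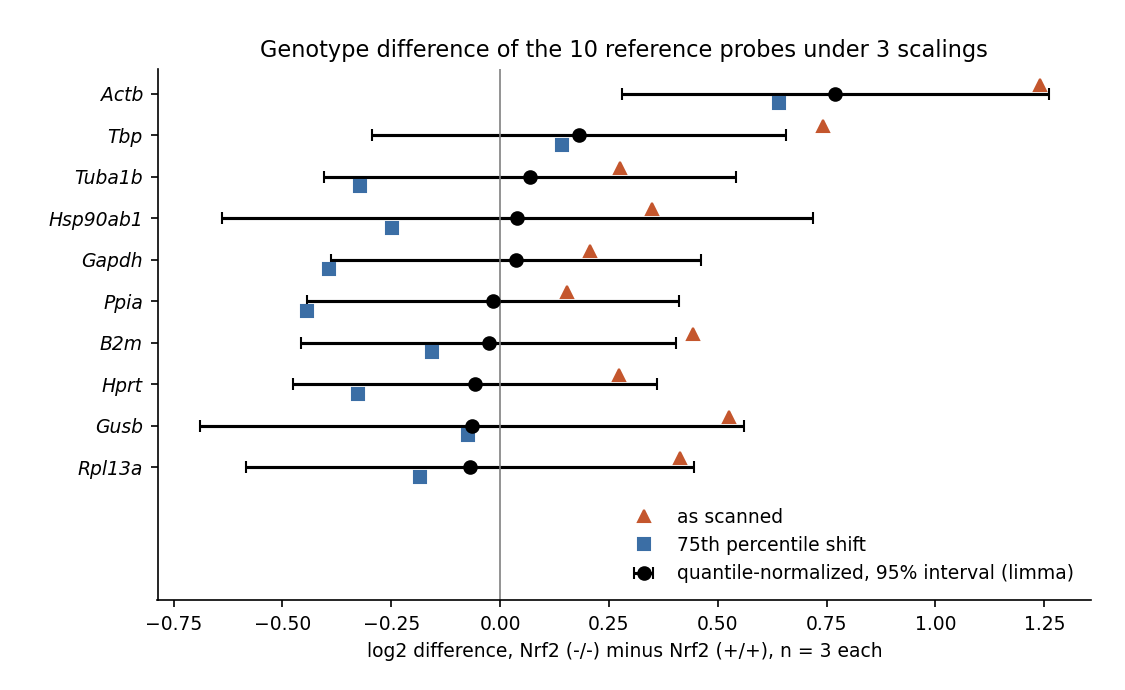
Log2 difference between Nrf2 (-/-) and Nrf2 (+/+) arrays (x axis, n = 3 each) for each reference probe (y axis), as circles with 95% intervals after quantile normalization, triangles as scanned and squares after a shift of each array by its 75th percentile. The interval of Actb starts at 0.28 and the other 9 include 0, while every triangle lies above 0.

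How the arrays were scaled decided the sign of most members. As scanned, all 10 members were higher in Nrf2 (-/-), from 0.15 (Ppia) to 1.24 (Actb), and 3 did not overlap between groups (Actb, Tbp and B2m), beside 45.4% of tested probes that were higher without overlap. The shift as scanned fell with signal over all tested probes, from a median of 0.83 below 6 log2 units to 0.24 above 16. Actb, at 1.24, fell in the bin of 14 to 16 log2 units by its mean over all arrays and in that of 12 to 14 by its Nrf2 (+/+) mean of 13.46, where the medians were 0.39 and 0.46. In the bin of Tbp and Gusb, 10 to 12 log2 units, the median was 0.53, with Tbp at 0.74 and Gusb at 0.53. The 5 members above 16 log2 units were at 0.15 to 0.35 around a median of 0.24. A shift of each array by its 75th percentile therefore left those bright members lower in Nrf2 (-/-), from -0.44 (Ppia) to -0.25 (Hsp90ab1), with Actb still higher at 0.64 and Tbp at 0.14. Quantile normalization gives probes of equal rank an equal value, and Ppia and Gapdh lay above percentile 99.8 of all probes on every array. Whether this limited their differences was not tested.

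Spots of the same probe on an array agreed closely. All 1200 member spots were well above background and no spot was saturated, and 59 flagged as outliers by the scanner software were left out. Over the 60 readings of a gene on an array the coefficient of variation among spots was 1.02% to 4.37%, with a median of 2.24%. By median spot SD the members ran from Hsp90ab1 at 0.023 log2 units, Tuba1b at 0.026 and B2m at 0.027 to Gapdh at 0.037, Tbp at 0.040 and Ppia at 0.048. The ranges over the 6 arrays overlapped between all neighbours in that order, and even between its ends, at 0.015 to 0.044 for Hsp90ab1 and 0.020 to 0.063 for Ppia. The standard error of an array mean was at most 0.014 log2 units for any member.

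Each mouse had 1 array, so the SD between mice holds labelling, hybridisation and scanning as well as the animals, and these cannot be told apart. After quantile normalization this SD, pooled within genotype, was smallest for Hprt (0.090 log2 units, 95% interval 0.054 to 0.26), then Gapdh (0.11), Ppia (0.11) and B2m (0.12). It was 0.19 for Tuba1b and for Tbp, 0.21 for Actb and 0.24 for Rpl13a. Gusb (0.35) and Hsp90ab1 (0.40, 95% interval 0.24 to 1.14) were the most variable. With 4 degrees of freedom these intervals are wide and those of all 45 pairs of members overlapped, and differences between the SDs were not tested. The median over members was 0.19, against 0.32 over all tested probes, and 8 of the 10 were below that. Members average up to 20 spots each and lay from brightness percentile 76.5 upwards. The tested probes were not matched to them for spots or brightness. Other scalings moved some values by over 1.5 times. With the 75th percentile shift B2m was at 0.22 and Hsp90ab1 at 0.26, and Gusb (0.35), Actb (0.30) and then Hsp90ab1 were the most variable. As scanned Hprt was at 0.17, B2m at 0.21 and Ppia at 0.22, and Gapdh was the smallest at 0.12. Without Nrf2 (-/-) replicate 2, the SD was 0.14 for Hsp90ab1, 0.048 for Hprt, 0.13 for Actb and 0.11 for Tbp, each over 1.5 times smaller.

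**Figure D3:**
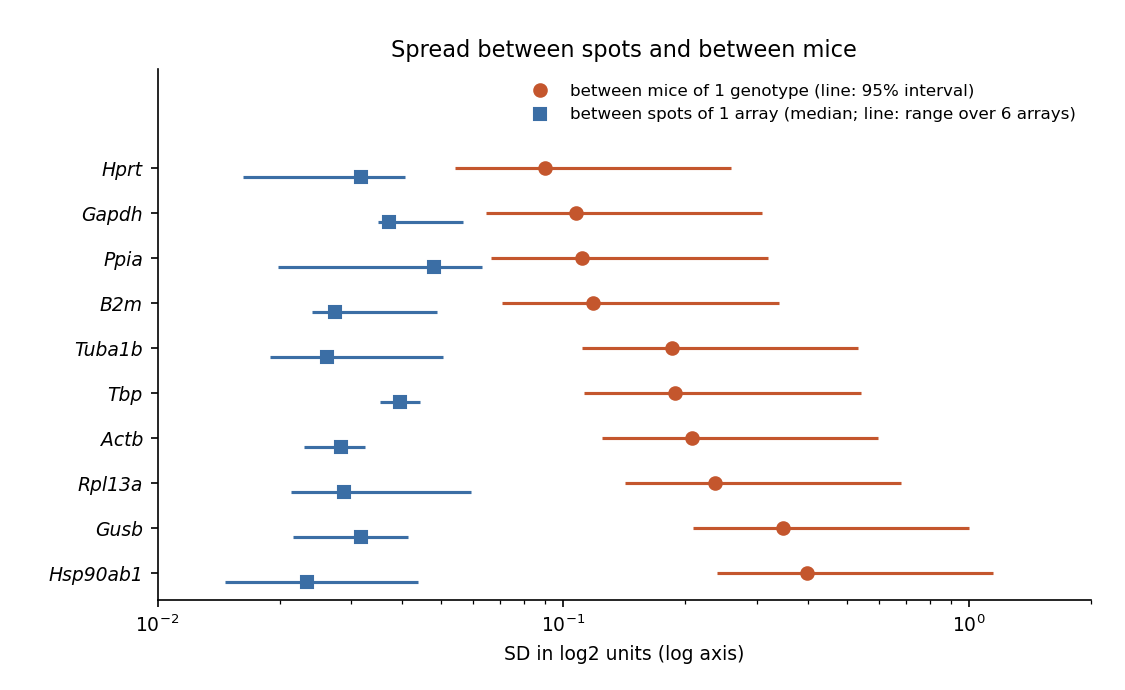
SD in log2 units (log x axis) of each reference probe between spots of an array (squares are medians, lines the range over 6 arrays) and between mice of a genotype (circles, lines the 95% interval from 4 degrees of freedom, quantile-normalized). Spot SDs reach at most 0.063, and the SD between mice runs from 0.090 for Hprt to 0.40 for Hsp90ab1.

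A ratio of 2 probes on the same array needs no scaling between arrays, and the 45 ratios were compared as scanned. The 3 steadiest were Gapdh over Hprt (SD over 6 arrays 0.073 log2 units), Tuba1b over Hprt (0.082) and Hprt over Ppia (0.085). The Gapdh over Hprt log2 ratio ran from 1.36 to 1.52 in Nrf2 (+/+) and from 1.31 to 1.43 in Nrf2 (-/-), overlapping. The log2 ratio of Hprt over Ppia, in contrast, did not overlap between genotypes, at -1.60 to -1.44 in Nrf2 (+/+) and -1.42 to -1.36 in Nrf2 (-/-). The 3 least steady were Actb over Hsp90ab1 (0.69), Actb over Ppia (0.64) and Actb over Gusb (0.63). The log2 ratio of Actb over Ppia rose from -4.08 in Nrf2 (+/+) to -2.99 in Nrf2 (-/-) on average, with no overlap, and that of Actb over Gapdh went from -4.02 to -2.99, also with no overlap.

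Actb had the largest mean SD against the other 9 members, a quantity known as the geNorm M value, at 0.59 against 0.22 (Hprt) to 0.32 (Tbp). The order from the steadiest was Hprt, Tuba1b (0.23), Rpl13a (0.23), B2m (0.24), Gapdh (0.26), Ppia (0.27), Gusb (0.31), Hsp90ab1 (0.32), Tbp and Actb. This SD is over all 6 arrays, so it also holds the difference between genotypes. Pooled within genotype, the mean SD was 0.36 for Actb, 0.31 for Hsp90ab1, 0.30 for Gusb and 0.23 for Tbp, with Hprt still lowest at 0.17. By the SD over all 6 arrays, when the least steady gene was removed in turn, Actb went first, then Tbp, Gusb, Hsp90ab1, Rpl13a, B2m, Gapdh and Ppia, and Tuba1b and Hprt remained. Without Nrf2 (-/-) replicate 2 the M value of Actb was 0.39, still the highest, and B2m was the steadiest, with Hprt the third. Hprt, Tuba1b, Gapdh and Ppia are also 4 of the 5 brightest probes, so they share the smaller shift of bright probes described above, and its part in this order was not tested. Taken on quantile-normalized values Ppia was first and Actb again last, with Hprt at rank 4 and Tbp at rank 6 (0.21).

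Groups did not overlap for 17 of the 45 ratios, beside 18.2% of the ratios of any tested probe to a member. Of these, 7 were among the 9 ratios with Actb and 10 among the 36 without it. The background also differed by member. In ratio to Actb, 15644 of the 43528 tested probes did not overlap between groups. In ratio to the other 9 members the number was 2598 (Gusb) to 12623 (Ppia). All 17 had an exact 2-sided permutation p = 0.1, the smallest possible, and an adjusted p over the 45 pairs of 0.265. Without Actb, the widest such difference was in Ppia over Tbp, 6.95 in Nrf2 (+/+) and 6.37 in Nrf2 (-/-). On quantile-normalized values the count was 9. Without Nrf2 (-/-) replicate 2 it was 32, where leaving out an array can leave the count the same or raise it but never lower it. The shares given above are for all 6 arrays as scanned and do not serve as a background for these counts.

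**Figure D4:**
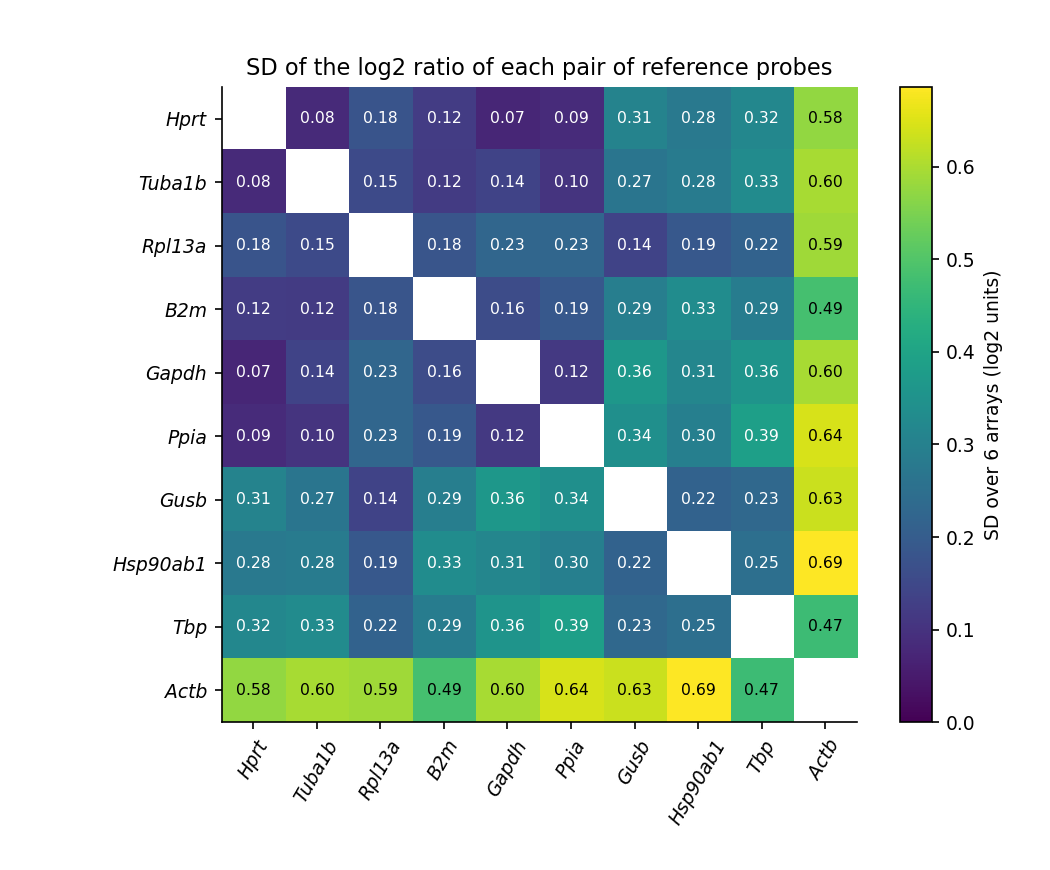
SD over the 6 arrays of the log2 ratio, as scanned, for each pair of reference probes, with genes on both axes ordered by M value and the colour scale in log2 units. The row and column of Actb hold the values from 0.47 to 0.69, and Gapdh with Hprt is the lowest at 0.073.

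To see what each member would do as the scale of the array, all 43528 tested probes were refitted with limma after subtraction of that member's log2 signal. Subtraction moves all probes of an array alike, so the median difference of all probes only restates the member's own difference as scanned. With Actb as the scale, 417 probes were called lower (0.958%) and 8 higher in Nrf2 (-/-) at an adjusted p under 0.05, 0.976% of probes in all. The median of all probes was then -0.61, and 28.2% of probes were lower at an unadjusted p under 0.05. Without Nrf2 (-/-) replicate 1 the number called with Actb was 12993.

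With each of the other 9 as the scale, 10 (Gusb) to 23 probes (Gapdh, Hprt and Ppia) were called in all. The shares were 0.023% with Gusb, 0.0276% with Hsp90ab1, 0.0322% with Rpl13a and with B2m, 0.0345% with Tbp, 0.0414% with Tuba1b and 0.0528% with Gapdh, Hprt and Ppia. The median of all probes was above 0 with 8 of them, from 0.10 with Gusb to 0.42 with Gapdh and 0.47 with Ppia, and it was -0.12 with Tbp. At an unadjusted p under 0.05, 22.0% of probes were higher with Gapdh and 25.2% with Ppia. The mean of the 10 members gave a median of 0.16 and 19 calls (0.0437%). With an array left out these counts moved, to 8790 with Ppia without Nrf2 (+/+) replicate 2, and to 3 with Ppia, Hprt or Tuba1b without Nrf2 (-/-) replicate 1. Without that array it was 0 with Gusb, Hsp90ab1, Rpl13a or Tbp, and Gusb also gave 0 without Nrf2 (+/+) replicate 1 or 3 or Nrf2 (-/-) replicate 3. Hsp90ab1 gave 0 without each array except Nrf2 (-/-) replicate 2. In these limma fits with 0 calls, 453 (Gusb) to 4153 (Hsp90ab1) probes had an unadjusted p under 0.05. The targeted Nfe2l2 differed by -3.83 log2 units with Ppia as the scale, -3.88 with Gapdh, -3.95 with Hprt and -4.91 with Actb. The choice between Actb and Ppia alone thus moved a fold change by 1.08 log2 units, the size of the genotype difference in their ratio.

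**Figure D5:**
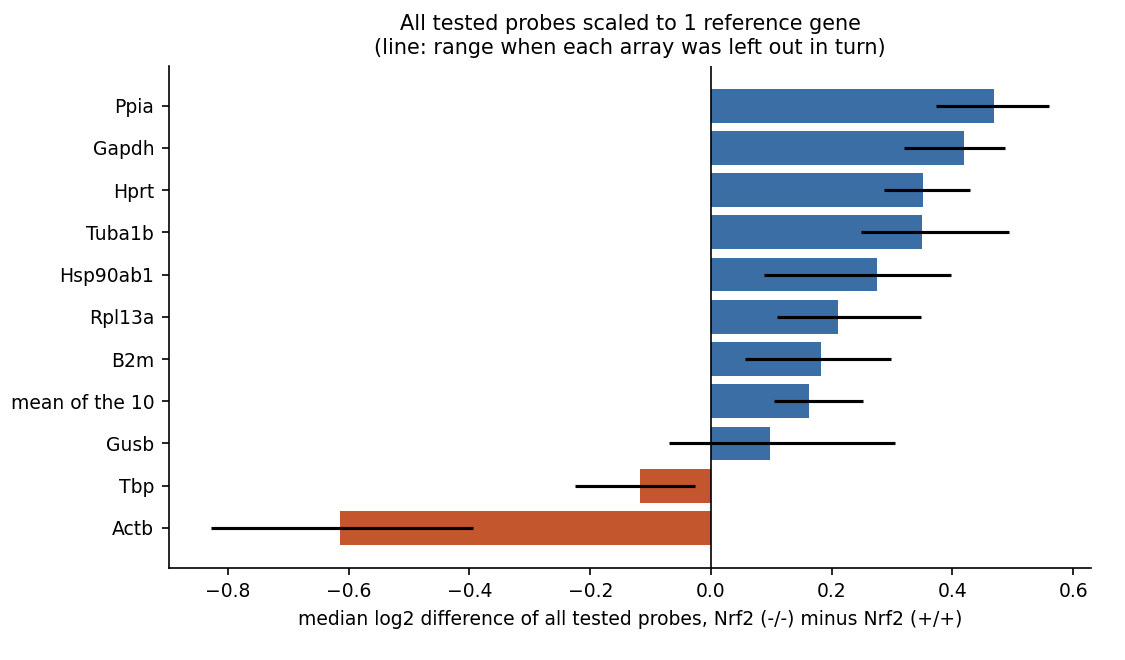
Median log2 difference between Nrf2 (-/-) and Nrf2 (+/+) of all 43528 tested probes (x axis) when the array was scaled to the gene named on the y axis. Lines show the range when each array was left out in turn; the median runs from -0.61 with Actb to 0.47 with Ppia, and the line of Gusb crosses 0.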

How the data were processed

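Hippocampal RNA of 6 mice was read on Arraystar Mouse LncRNA V3.0 arrays, whose design follows mm9. The authors deposited the spot intensity values from Agilent Feature Extraction 11.0.1.1, background-subtracted and not normalized between arrays, and a quantile-normalized log2 table. Processed intensities of the spots of a probe, without flagged outliers, were averaged on the log2 scale (60915 probes) and quantile-normalized with limma 3.58.1 in R 4.3.3. Probes marked by the scanner software as clearly over background on 3 or more of the 6 arrays, 43528 in number, were tested with lmFit and eBayes, with Benjamini-Hochberg adjustment, and the number of arrays limits the precision. Exact permutation tests, SDs and ratios used Python 3.11.15 and scipy 1.17.1. Members were named by matching the transcript identifier in the files to RefSeq gene records, and all 10 matched. The Nfe2l2 probe was named by its values. It alone in the deposited table matched the fold change and t-test p that the study lists for Nfe2l2. By rule, all 10 members, Nfe2l2, the other probes of the set and the 3 steadiest and 3 least steady ratios are named, and the other ratios, the Mouse-GAPDH probes and the signal bins were chosen after their values were seen. The members are defined by probe name, but they and the lists were chosen with earlier results of these data known. The files give scan times and scanner settings, and arrays of 1 scan time were taken to share a slide. The fit was tested on simulated data for this comparison over 43528 probes, where it called 0 of 50 probes given a 2-fold change, 19 of 50 given a 4-fold change, 43 of 50 given a 16-fold change and 0 unchanged probes. The labels give 1 mouse per array. Alternatives tried were other scalings, background corrections, filters, spot summaries, tests, blocks and each array left out. Cell type markers, long noncoding RNAs and Agilent's spike-ins were not analysed here.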

Additional observations from a re-analysis of the deposited data

How the results depend on the processing

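None of the 10 members passed an adjusted p under 0.05 under any of 19 alternatives. These were limma fits, apart from the equal-variance test of the methods, a t-test. That test also left Actb as the 1 member with an unadjusted p under 0.05. Actb stayed higher in Nrf2 (-/-) in all 19, from 0.63 to 1.24 log2 units, with an unadjusted p under 0.05 each time. Its limma adjusted p ran from 0.067 (as scanned) to 0.999977 (scan session as a block). As scanned, where 18879 probes were higher at an unadjusted p under 0.05, Tbp was also past that limit, at 0.74 (limma adjusted p = 0.0712). The signs of members near 0 turned. As scanned, B2m was at 0.44, Gusb at 0.53, Hprt at 0.27, Ppia at 0.15 and Rpl13a at 0.41. With the 75th percentile shift Gapdh was at -0.39, Hsp90ab1 at -0.25 and Tuba1b at -0.32. Ppia was at 0.0017 in the deposited table and with outlier spots kept, and at 0.0038 with shared scan time (taken as the slide) as a block. When each array was left out in turn, the difference ran from -0.091 to 0.0348 for B2m, -0.0297 to 0.0892 for Gapdh, -0.28 to 0.11 for Gusb, -0.0928 to 0.00797 for Hprt, -0.18 to 0.35 for Hsp90ab1, -0.0656 to 0.0576 for Ppia, -0.18 to 0.0845 for Rpl13a and -0.0471 to 0.17 for Tuba1b.

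Ratios without overlap numbered 9 on quantile-normalized values, 10 in the deposited table and 17 to 32 with an array left out, which cannot lower the count, most without Nrf2 (-/-) replicate 2. With an array left out, the median of all probes ran from -0.83 to -0.39 with Actb as the scale, -0.0696 to 0.31 with Gusb and 0.0883 to 0.40 with Hsp90ab1, and the number called with Actb from 309 to 12993. The cause of these moves was not tested.

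The labels give no pairing of mice by replicate number, though the arrays of number 1, and those of number 3, were scanned together. Deviations from the group means correlated at -0.15, 0.43 and 0.81 for numbers 1, 2 and 3. Number 1 correlated best with another number, and numbers 2 and 3 each with their own. So few correlations cannot decide whether the numbers mark pairs. The replicate block left Actb at 0.77 (SE 0.13, limma adjusted p = 0.238) and 0 members called. Over all 43528 tested probes it called 0, against 21 without a block. The block by shared scan time called 566 of them, 102 higher and 464 lower in Nrf2 (-/-). Replicate 2 of each genotype was alone in its scan, so the genotype difference in that fit rests on replicates 1 and 3.

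With 3 mice a group, none of 50 simulated 2-fold changes was called (limma adjusted p under 0.05). The changed probes were drawn from all tested probes, whose median SD between mice was 0.32, against 0.19 for the members. The simulation thus does not give the sensitivity for the members.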
